A study of Mus musculus with 9 samples.

Results

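The genes described here handle the uptake, export, storage and sensing of iron. They form a set of 10, chosen by name with earlier results of these data known, of which 9 could be measured. They were read in TAMH cells, an immortalized mouse hepatocyte line derived from transgenic mice that overexpress transforming growth factor alpha. Cells received diquat at 18 µM, paraquat at 126 µM or medium alone, each for 9 h, with 3 arrays per group. All 3 groups grew in the same medium, supplemented with transferrin, insulin, selenium, dexamethasone and nicotinamide. Diquat and paraquat are bipyridylium herbicides that cycle between oxidized and reduced forms inside cells and pass electrons to oxygen, which makes superoxide. The series was named as a study of these herbicides in a hepatocyte model, and the comparisons below ask what each compound did to iron genes relative to medium. The genes were taken by symbol from the array annotation. Tfrc, Slc11a2, Steap3, Slc40a1, Hamp, Fth1, Ncoa4, Ireb2 and Aco1 each had 1 array feature, out of 22180 genes that could be named and tested. Trf, which encodes transferrin, had 1 feature that carries the symbol of another gene as well, so its values were not analysed here.

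Iron reaches a hepatocyte mainly as transferrin-bound ferric iron, which the transferrin receptor (Tfrc) carries into endosomes, where it is released, reduced by enzymes such as Steap3 and moved to the cytosol by the divalent metal transporter Slc11a2. Surplus iron is stored in ferritin, whose heavy chain is Fth1, is freed again when the cargo receptor Ncoa4 takes ferritin to the lysosome, and leaves the cell through ferroportin, Slc40a1. Hepcidin, the product of Hamp, is a hormone made by hepatocytes that triggers the removal of ferroportin from cell surfaces. The iron regulatory proteins Aco1 (IRP1) and Ireb2 (IRP2) bind iron-responsive elements in mRNAs when iron is scarce, which protects Tfrc mRNA from decay and holds back translation of ferritin and ferroportin. An array measures mRNA only, so the translational arm of this system is not seen in these values.

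Values are log2 array signals after RMA, a method that corrects background, sets the arrays to a common distribution and summarizes the probes of a feature. A difference of 1 on this scale is a 2-fold change. The test was limma across all 22180 genes, and a gene passed when its Benjamini-Hochberg adjusted p was below 0.05. Per the labels, each treatment used 3 dishes, but they leave unsaid whether each array is a culture of its own. The p-values therefore reflect only how far these arrays differ within a group, and that may be technical. Array medians ran from 5.95 to 6.04, and pairs of arrays correlated at Pearson's r of 0.9952 to 0.9991 across genes. Diquat replicate 3 stood farthest from its group mates, at a root-mean-square log2 difference of 0.134. The other arrays stood at 0.0714 to 0.115. The hepatocyte label was checked with 13 marker genes, whose mean log2 signal per array was 10.39 to 10.42 with diquat, 10.31 to 10.46 with paraquat and 10.49 to 10.54 in medium. The lists for macrophages (8 genes), stellate cells (7) and endothelial cells (6) lay between 5.71 and 6.63 on every array. The cholangiocyte and progenitor list (5) lay between 8.33 and 8.47. Single genes of the lists overlapped. In medium the hepatocyte markers averaged from 7.16 to 12.73. The highest gene mean was 10.20 on the cholangiocyte and progenitor list, 9.18 on the stellate list and 7.62 on the macrophage list. In bulk RNA of this kind, fewer cells of a type and less RNA per cell cannot be told apart.

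The main receptor for iron uptake rose and the iron exporter fell with both herbicides. Tfrc was 2.13-fold higher with diquat than in medium and 2.12-fold higher with paraquat, and Slc40a1 fell 1.49-fold and 1.77-fold. Slc11a2 rose 1.13-fold and 1.14-fold, and Ireb2 rose 1.15-fold with diquat. Of the 9 genes, 3 rose and 1 fell with diquat. Among all genes tested, 7.02% passed with diquat, 4.13% higher and 2.89% lower. With paraquat 2 of the 9 rose and 1 fell, where 4.57% of all genes passed, 2.33% higher and 2.24% lower. Because the set was chosen with earlier results known, counts above these shares are no test of the set. The median log2 change of the 9 genes was 0.04 with each compound, beside -0.02 with diquat and 0.00 with paraquat over all genes tested. The diquat count of 4 became 2 without medium replicate 1, 2 or 3, and 3 without diquat replicate 1 or 3 or without any 1 paraquat array. The paraquat count of 3 became 2 without any 1 of the 3 medium or 3 paraquat arrays. Tfrc and Slc40a1 passed in every one of these fits. Among all genes that passed with diquat, 58.9% were higher in the deposited values. That share was 77.5% once array medians had been set equal and 45.2% once the arrays had been quantile normalized.

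**Figure D1:**
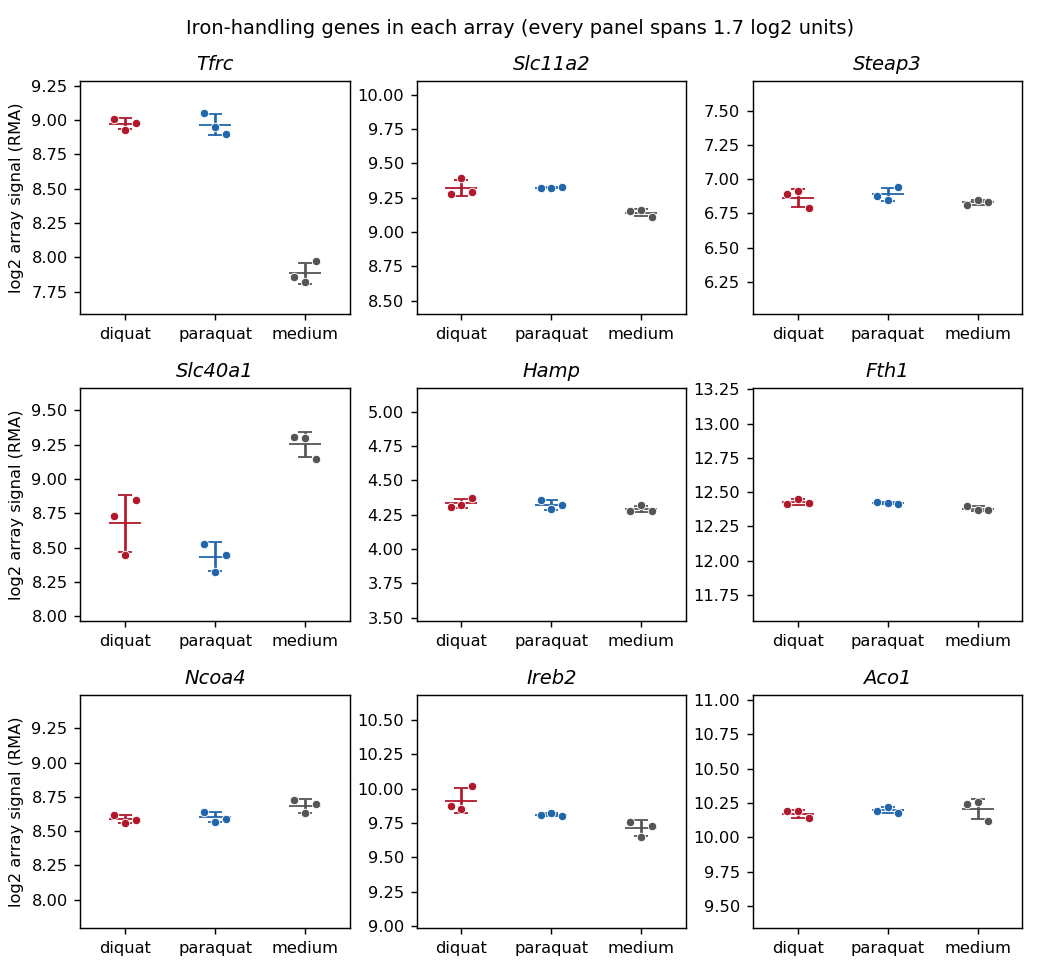
Log2 array signal (y axis) of the 9 iron genes in each array, with diquat, paraquat and medium side by side (x axis); points are arrays, the wide bars are means and the whiskers are standard deviations over 3 arrays. The treated arrays of Tfrc sit between 8.90 and 9.05, above the medium arrays at 7.82 to 7.97, and those of Slc40a1 sit between 8.32 and 8.85, below the medium arrays at 9.15 to 9.31.

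Tfrc, the gateway for transferrin-bound iron, had log2 signals of 9.01, 8.93 and 8.98 with diquat, 9.05, 8.95 and 8.90 with paraquat, and 7.86, 7.82 and 7.97 in medium. Every treated array was above every medium array, and the gap between them was wider than the spread within any group. The log2 change was 1.09 ± 0.05 (SE) for diquat (limma's adjusted p = 2.55e-06) and 1.08 ± 0.05 (SE) for paraquat (limma's adjusted p = 2.71e-06). The 95% intervals of the fold were 1.97 to 2.31 for diquat and 1.96 to 2.30 for paraquat. By absolute log2 change Tfrc was at rank 19 of 22180 genes in both comparisons, which share the same medium arrays.

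The RefSeq promoter table, on build GRCm38.p6, held windows for 7 of the 10 genes. For Tfrc 2 overlapping windows were listed, and the stretch shown, at chr16:32608872-32608971 on the plus strand, lies upstream of the later annotated start. It spans the earlier annotated start, at position 32608896, so most of it is downstream of that start. It is shown because Tfrc had the largest change among the 9 genes. Capitals mark ACGTG, the core letters of a hypoxia response element, and TGACGT, the letters bound by CREB and ATF family factors.
Tfrc: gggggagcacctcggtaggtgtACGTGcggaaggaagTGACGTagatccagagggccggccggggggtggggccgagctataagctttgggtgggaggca
These begin at positions -228 and -213 from the later start, and at -2 and 14 from the earlier one, so TGACGT lies downstream of the earlier start. Searched on both strands and over windows of 300 bases, ACGTG occurred in 19.6% of the 32851 promoter windows of all genes and TGACGT in 7.51%. The letters were chosen after the sequence had been seen, and a match describes the sequence without showing that a factor binds. AP-1 letters (TGANTCA, in 7.81% of windows) and antioxidant response letters (TGACNNNGC, in 12.4%) did not occur in either Tfrc window. GGCGCC, described below for Hamp, occurred at -89 from the earlier Tfrc start, outside the stretch shown. Of the other genes, Ncoa4 held ACGTG in 2 of its 3 windows and the antioxidant response letters TGACNNNGC in 1 of them, at -44 from its start. The windows of Fth1, Ireb2, Aco1 and Steap3 held none of the motifs searched. Each window covers 250 bases before and 50 bases after a listed start, so sites farther away were not searched. Slc40a1 and Slc11a2 had no entry in the table.

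Slc11a2, which moves ferrous iron out of endosomes, had log2 signals of 9.28, 9.39 and 9.29 with diquat, 9.32, 9.32 and 9.33 with paraquat, and 9.15, 9.16 and 9.11 in medium. The treated and medium arrays did not overlap, although the gap between the groups was small. The log2 change was 0.18 ± 0.04 (SE) with each compound (limma's adjusted p = 0.0208 for diquat and 0.0237 for paraquat). Both calls were lost without medium replicate 1, 2 or 3, where the adjusted p lay between 0.0594 and 0.0875. The paraquat call was also lost without paraquat replicate 1, 2 or 3, and the diquat call after quantile normalization (log2 change 0.15, adjusted p = 0.078) or in a fit of diquat and medium alone (adjusted p = 0.0637). Transcripts of Slc11a2 with and without an iron-responsive element exist, and its 1 array feature does not separate them.

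Steap3, the endosomal ferrireductase, had log2 signals of 6.89, 6.91 and 6.79 with diquat, 6.88, 6.85 and 6.94 with paraquat, and 6.81, 6.85 and 6.83 in medium. The groups overlapped in both comparisons. Its log2 change was 0.03 (95% interval -0.06 to 0.13) with diquat and 0.06 (-0.03 to 0.15) with paraquat, and it did not pass.

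Slc40a1, the iron exporter ferroportin, had log2 signals of 8.73, 8.45 and 8.85 with diquat, 8.53, 8.32 and 8.45 with paraquat, and 9.31, 9.30 and 9.15 in medium. All treated arrays lay below all medium arrays, and the diquat arrays were the most spread (SD 0.21, against 0.11 with paraquat and 0.09 in medium, n = 3 each). The log2 change was -0.58 ± 0.10 (SE) with diquat (limma's adjusted p = 0.0058) and -0.82 ± 0.10 (SE) with paraquat (limma's adjusted p = 0.000988). Leaving out diquat replicate 2, the lowest diquat array, gave -0.46 for diquat, and leaving out diquat replicate 3 gave -0.66. Of the 13 hepatocyte markers, 3 also fell with each compound and 0 rose. Among all genes, 2.89% fell with diquat and 2.24% with paraquat. Only Ttr, a plasma carrier of thyroid hormone and retinol, fell with both (log2 change -0.34 with diquat and -0.32 with paraquat). The others were Apob and Hnf4a with diquat (-0.19 each) and Fgb and Fgg with paraquat (-0.52 each). Limma's adjusted p was 0.0205 for Apob, 0.05 after rounding for Hnf4a, 0.0276 for Fgb and 0.0453 for Fgg. The paraquat arrays were uneven, at 9.82, 9.29 and 9.34 for Fgb and 8.84, 8.35 and 8.23 for Fgg. The medium means were 10.00 and 8.99. Cd68, on the macrophage list, rose with diquat (log2 change 0.40) and stood at 8.02 ± 0.11 with diquat, 7.98 ± 0.06 with paraquat and 7.62 ± 0.22 in medium (SD, n = 3 each). No other gene of the 8 on that list passed, and the mean of the list lay at 5.98 to 6.08 per array with diquat, 6.08 to 6.13 with paraquat and 6.05 to 6.07 in medium. On the cholangiocyte and progenitor list, with 5 genes measured, 1 gene rose and 2 fell with diquat and 1 rose with paraquat. Sox9 rose with both compounds (log2 change 0.45 and 0.39), while Krt7 and Krt19 fell with diquat (-0.29 and -0.16). None of the stellate or endothelial genes passed. Over all genes, 4.13% rose with diquat and 2.33% with paraquat. The part of these shifts in the fall of Slc40a1 was not tested.

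Hamp, the hepcidin gene, had log2 signals of 4.31, 4.32 and 4.37 with diquat, 4.36, 4.29 and 4.32 with paraquat, and 4.28, 4.32 and 4.28 in medium. The lowest value in the whole table was 3.89, so these signals are close to the bottom of the range and cannot be separated from background. The groups overlapped, and the log2 changes of 0.04 and 0.03 did not pass (limma's adjusted p = 0.562 and 0.818). The stretch of its promoter shown for reference lies just upstream of the annotated start, at chr7:30944030-30944179 on the minus strand of GRCm38.p6. Capitals mark GGCGCC, the core of the element through which bone morphogenetic protein signals act on hepcidin, TTCNNNGAA, the letters of a STAT site, and TGANTCA, the AP-1 letters.
Hamp: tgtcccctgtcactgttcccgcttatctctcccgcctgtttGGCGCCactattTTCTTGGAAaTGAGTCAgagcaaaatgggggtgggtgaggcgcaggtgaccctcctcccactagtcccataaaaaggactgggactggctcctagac
The 3 matches begin at -109, -97 and -87 from the start and do not overlap one another. GGCGCC occurred in 11.9% of all promoter windows, TTCNNNGAA in 8.3% and TGANTCA in 7.81%.

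Fth1, the ferritin heavy chain, had log2 signals of 12.41, 12.45 and 12.42 with diquat, 12.43, 12.42 and 12.41 with paraquat, and 12.40, 12.37 and 12.37 in medium. These signals are near the top of the table, whose highest value was 13.19, where a change can be compressed. All treated arrays lay above all medium arrays, as did those of 10.1% of all genes with diquat and 9.05% with paraquat. The log2 changes were 0.05 (95% interval -0.02 to 0.12) and 0.04 (-0.03 to 0.11), and neither passed. Fth1 has near-identical processed copies in the genome, and probes shared with them cannot be told apart in these values.

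Ncoa4, the receptor that delivers ferritin for breakdown, had log2 signals of 8.62, 8.56 and 8.58 with diquat, 8.64, 8.57 and 8.59 with paraquat, and 8.73, 8.63 and 8.70 in medium. The diquat arrays lay below all medium arrays, while 1 paraquat array overlapped with them. The log2 changes of -0.10 ± 0.04 and -0.09 ± 0.04 (SE) did not pass (limma's adjusted p = 0.177 and 0.338).

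Of the pair of iron regulatory proteins, Ireb2 had log2 signals of 9.87, 9.85 and 10.02 with diquat, 9.81, 9.82 and 9.80 with paraquat, and 9.76, 9.65 and 9.73 in medium. The 3 groups did not overlap, with diquat highest and medium lowest. The log2 change was 0.20 ± 0.05 (SE) with diquat (limma's adjusted p = 0.0405) and 0.10 ± 0.05 (SE) with paraquat (limma's adjusted p = 0.426). The diquat call rested on a narrow margin. It was lost without diquat replicate 3, the highest array (log2 change 0.15, adjusted p = 0.0735), without diquat replicate 1, without any 1 medium or paraquat array, in a fit of diquat and medium alone (adjusted p = 0.112), and with all array features tested (adjusted p = 0.0612). Aco1, which serves as a cytosolic aconitase when it holds an iron-sulfur cluster, had log2 signals of 10.19, 10.19 and 10.14 with diquat, 10.19, 10.22 and 10.18 with paraquat, and 10.24, 10.26 and 10.12 in medium. Its groups overlapped, and its log2 changes were -0.03 (95% interval -0.13 to 0.06) and -0.01 (-0.11 to 0.09).

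**Figure D2:**
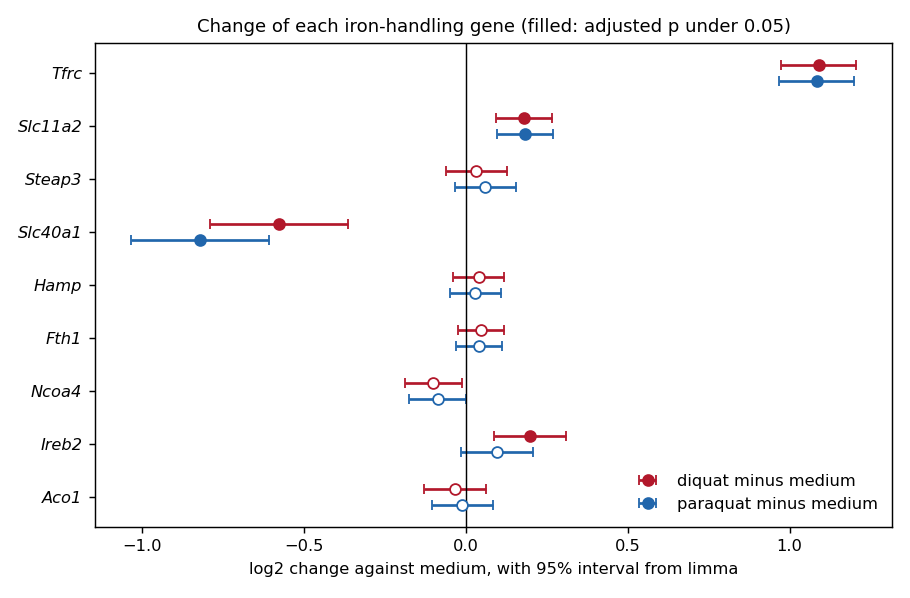
Log2 change against medium (x axis) of each iron gene (y axis) for diquat and paraquat, with 95% intervals from limma; filled points passed the adjusted p of 0.05. Tfrc lies at 1.09 and 1.08, Slc40a1 at -0.58 and -0.82, and the intervals of Steap3, Hamp, Fth1 and Aco1 include 0 for both compounds.

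Taking the 9 genes by whether groups were separated, 4 had all diquat arrays above all medium arrays and 2 had all below, where 10.1% of all genes were above and 11.2% below (21.3% in either direction). With paraquat 4 were above and 1 below, where 9.05% of all genes were above and 10.4% below (19.4% in either direction). The genes above were Tfrc, Slc11a2, Fth1 and Ireb2 with each compound. Slc40a1 was below with both compounds and Ncoa4 with diquat. Here too the choice of genes was made with earlier results known, so the shares do not test the set.

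The compounds were then set against each other, with the reservation that their doses differed, 126 µM for paraquat and 18 µM for diquat. None of the 9 genes passed limma's adjusted p for paraquat minus diquat, and neither did any of the 22180 genes (0%, beside 2371 genes, or 10.7%, at an unadjusted p below 0.05). Tfrc averaged 8.97 ± 0.08 with paraquat and 8.97 ± 0.04 with diquat (SD, n = 3 each), a log2 difference of -0.01 with a 95% interval of -0.12 to 0.11. Slc11a2 differed by 0.00 (95% interval -0.08 to 0.09). Slc40a1 averaged 8.43 ± 0.11 with paraquat and 8.68 ± 0.21 with diquat (SD, n = 3 each), a log2 difference of -0.24 with a 95% interval of -0.46 to -0.03 (limma's adjusted p = 0.44). That interval is not adjusted for the number of genes, and 1 diquat array, at 8.45, lay within the range of the paraquat arrays. Ireb2 differed by -0.10 (95% interval -0.21 to 0.01), with all paraquat arrays below all diquat arrays, where 5.18% of all genes were separated that way and 5.36% the other way (10.5% in all). The other 8 iron genes overlapped. A difference that does not pass does not show that the compounds act alike.

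Other genes of iron and heme handling were taken from 8 lists with 100 entries, of which 92 were measured. With diquat 4 rose and 4 fell, with a median log2 change of -0.03, and with paraquat 4 rose and 3 fell, with a median of -0.03. The share of all genes that passed was 7.02% with diquat and 4.57% with paraquat. These lists were also chosen with earlier results known.

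Among 15 further genes of iron uptake, 1 rose and 1 fell with diquat, and 1 rose and 2 fell with paraquat. The shares of all genes were 4.13% higher and 2.89% lower with diquat, and 2.33% higher and 2.24% lower with paraquat. Steap1, a relative of Steap3, averaged 8.20 ± 0.03 with diquat, 8.19 ± 0.08 with paraquat and 7.99 ± 0.07 in medium (SD, n = 3 each), and its log2 changes of 0.21 and 0.20 passed (limma's adjusted p = 0.0275 and 0.0436). Tfr2, the second transferrin receptor of hepatocytes and part of the hepcidin-sensing complex, fell with paraquat by 0.53 on the log2 scale (limma's adjusted p = 0.0321). With diquat its log2 change of -0.38 did not pass (limma's adjusted p = 0.0888). All its treated arrays lay below all medium arrays, as did those of 11.2% of all genes with diquat and 10.4% with paraquat. Tfr2 averaged 7.69 ± 0.10 with diquat, 7.55 ± 0.26 with paraquat and 8.07 ± 0.14 in medium (SD, n = 3 each). Lrp1, a receptor that takes up heme bound to hemopexin among many other ligands, fell 1.24-fold with diquat and 1.33-fold with paraquat (limma's adjusted p = 0.0389 and 0.0128). The call of Tfr2 with paraquat was lost in a fit of paraquat and medium alone, with all array features tested, and without any 1 medium array, diquat replicate 1, or paraquat replicate 2 or 3, while Tfr2 passed with diquat without paraquat replicate 1 (adjusted p = 0.0169), after quantile normalization (adjusted p = 0.0384) and in a fit of diquat and medium alone (adjusted p = 0.0463). Lrp1 lost its call with both compounds without medium replicate 1 or 2, with diquat also without any 1 diquat array or paraquat replicate 3, and with paraquat also without paraquat replicate 2 or 3. The call of Lrp1 with diquat and that of Steap1 with paraquat were also lost after centring, in a fit of 2 groups and with all array features tested. Steap1 lost its call with paraquat without any 1 of the 9 arrays, and with diquat without medium replicate 2 or 3 or diquat replicate 1 or 3.

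Of 3 genes of export and ferroxidation, none passed. Cp, the ferroxidase ceruloplasmin that helps load exported iron onto transferrin, averaged 10.86 ± 0.15 with diquat, 10.82 ± 0.07 with paraquat and 11.06 ± 0.04 in medium (SD, n = 3 each), with limma's adjusted p at 0.114 and 0.0907. It passed in both comparisons without diquat replicate 3 (adjusted p = 0.0113 and 0.0158), after quantile normalization (0.0194 and 0.0169) and with array weights (0.0247 and 0.014), and with paraquat in a fit of 2 groups (0.0279). Hephl1, a hephaestin relative, had log2 changes of -0.01 and 0.06.

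Of 9 measured genes of storage, iron chaperones and sensing, none passed. The largest log2 changes were those of Glrx3, a glutaredoxin that handles iron-sulfur clusters (0.00 with diquat and -0.17 with paraquat), and Fbxl5, the ubiquitin ligase subunit that targets IRP2 for degradation (-0.13 and -0.07). Fbxl5 passed with diquat once diquat replicate 3 was left out (adjusted p = 0.0431). Ferritin light chain, Ftl1, had array features only together with other symbols and was not analysed here. Among 3 measured genes of other mRNAs that carry iron-responsive elements, none passed either. Epas1, which encodes hypoxia-inducible factor 2 alpha, had log2 changes of 0.20 and 0.16, and the phosphatase gene Cdc14a of 0.14 and 0.08.

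The hepcidin control list held 20 genes, all measured, and leaves out Tfr2, which was counted under iron uptake. In this list 1 gene fell with diquat and none passed with paraquat, where 7.02% and 4.57% of all genes passed. The list medians were -0.01 and -0.04 on the log2 scale. The gene that fell was Smad6, an inhibitor of bone morphogenetic protein signalling, at 6.37 ± 0.05 with diquat, 6.45 ± 0.03 with paraquat and 6.63 ± 0.12 in medium (SD, n = 3 each), with limma's adjusted p at 0.0203 for diquat and 0.129 for paraquat. The diquat call was lost without diquat replicate 1 (adjusted p = 0.0742) and in a fit of diquat and medium alone (adjusted p = 0.071).

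In heme synthesis 2 of 7 measured genes fell with diquat and 1 with paraquat, and none rose. Over all genes tested, 2.89% fell with diquat and 2.24% with paraquat. Urod, which makes coproporphyrinogen, fell 1.18-fold with diquat and 1.15-fold with paraquat (limma's adjusted p = 0.00895 and 0.0199). Fech, which inserts iron into protoporphyrin, fell 1.16-fold with diquat (limma's adjusted p = 0.023), and its change of -0.15 on the log2 scale with paraquat did not pass. The diquat call of Fech was lost without medium replicate 1 or 2, or diquat replicate 1 or 2, after centring on array medians (adjusted p = 0.0697) and in a fit of diquat and medium alone (adjusted p = 0.0718). Fech passed with paraquat without medium replicate 3 (adjusted p = 0.0363) and with array weights (adjusted p = 0.0367). The paraquat call of Urod was lost without any 1 medium array or paraquat replicate 2 or 3. The list medians were -0.12 with diquat and -0.09 with paraquat, beside -0.02 and 0.00 over all genes tested.

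Heme transport and breakdown held 2 rises among 12 genes with each compound, where 4.13% of all genes rose with diquat and 2.33% with paraquat. Hmox1, the heme oxygenase that opens the heme ring and frees its iron, averaged 8.45 ± 0.12 with diquat, 8.30 ± 0.03 with paraquat and 7.73 ± 0.04 in medium (SD, n = 3 each), and passed in both comparisons (limma's adjusted p = 5.35e-05 and 0.000314). Slc48a1, a heme transporter of endosomes and lysosomes, was higher by 1.23-fold with diquat and by 1.11-fold with paraquat (limma's adjusted p = 0.000872 and 0.0393). The paraquat call of Slc48a1 was lost without any 1 medium or paraquat array, after centring or quantile normalization, and with all array features tested (adjusted p between 0.0559 and 0.133).

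Of 23 measured genes of mitochondrial iron and iron-sulfur cluster assembly, 1 passed with each compound, where 7.02% and 4.57% of all genes passed. The gene that passed was Slc25a37, mitoferrin 1, which imports iron into mitochondria. Its log2 signal averaged 10.90 ± 0.03 with diquat, 10.83 ± 0.04 with paraquat and 10.40 ± 0.12 in medium (SD, n = 3 each), a rise of 1.41-fold and 1.35-fold (limma's adjusted p = 0.000527 and 0.00166). The other 22 genes, which include its relative Slc25a28, did not pass in either comparison.

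**Figure D3:**
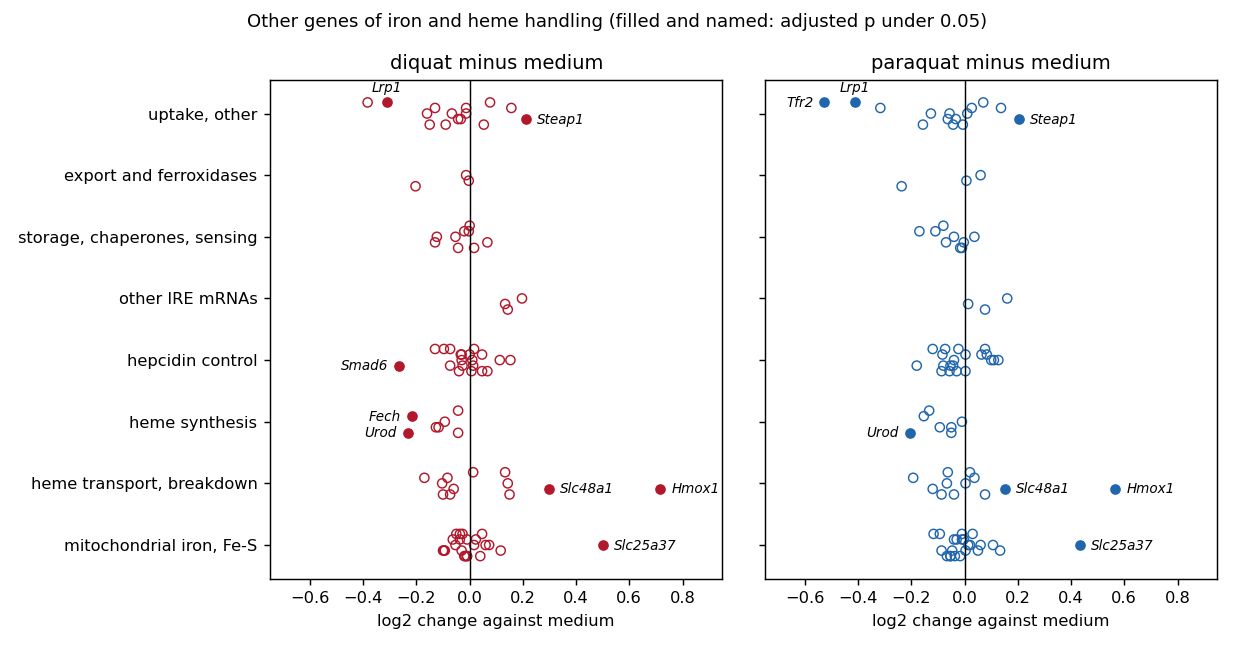
Log2 change against medium (x axis) of 92 other genes of iron and heme handling, grouped by list (y axis), for diquat (left) and paraquat (right); filled, named points passed limma's adjusted p of 0.05. Hmox1 and Slc25a37 lie farthest right, at 0.72 and 0.50 with diquat and at 0.57 and 0.43 with paraquat.

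Genes whose profile over the 9 arrays was closest to that of Tfrc and Slc40a1 were found by the root-mean-square difference between log2 values, each taken as a difference from the gene's mean in medium. For Tfrc they were Ereg (0.07) and Btc (0.10), which encode ligands of the epidermal growth factor receptor, and Chac1 (0.11), which encodes an enzyme that breaks down glutathione. Ereg averaged 8.29 with diquat, 8.24 with paraquat and 7.20 in medium. For Slc40a1 they were Crp (0.10), which encodes the acute phase reactant C-reactive protein, Spatc1l (0.13) and Pxmp4 (0.13), which encodes a peroxisomal membrane protein. Crp averaged 9.44 with diquat, 9.21 with paraquat and 10.06 in medium. These likenesses describe 9 arrays in 3 groups and carry no test.

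**Figure D4:**
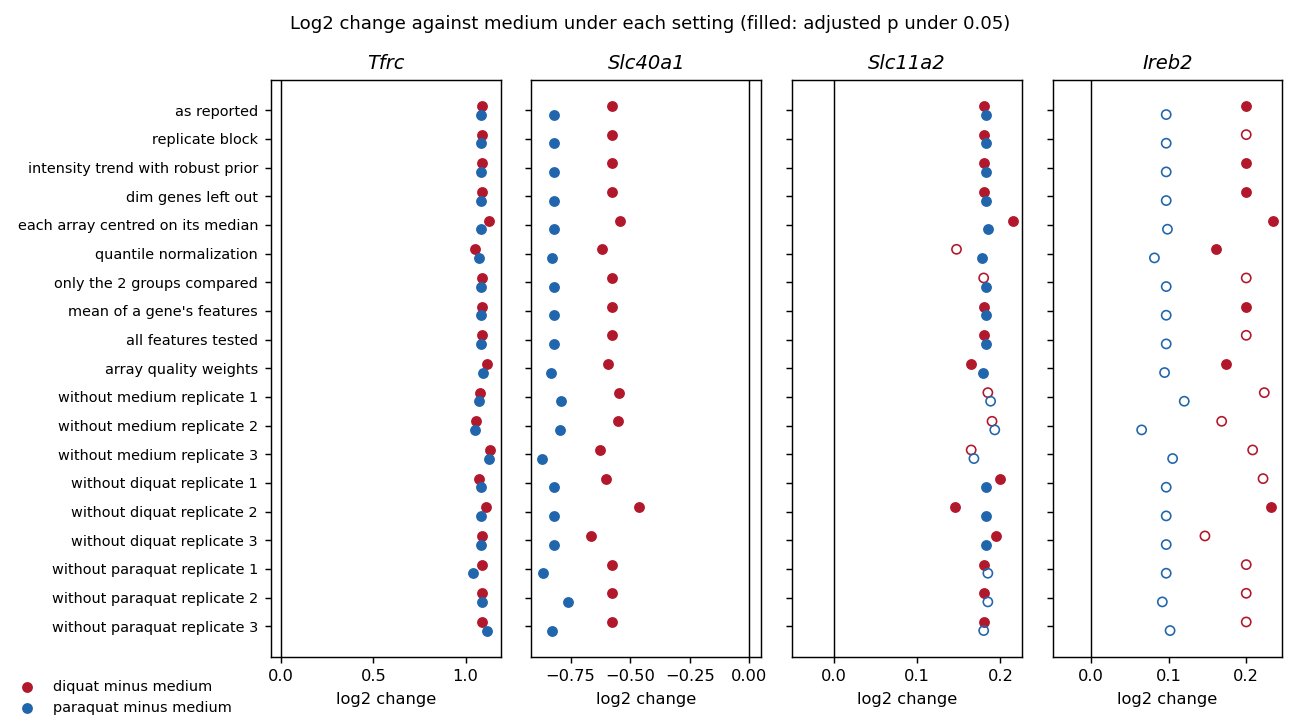
Log2 change against medium (x axis) of Tfrc, Slc40a1, Slc11a2 and Ireb2 for diquat and paraquat under the reported fit and 18 other settings (y axis); filled points passed limma's adjusted p of 0.05. Tfrc stays between 1.04 and 1.13 and Slc40a1 between -0.87 and -0.46 with every point filled. Of the 18 other settings, Slc11a2 loses the fill in 5 with diquat and 6 with paraquat, and Ireb2 in 11 with diquat. Ireb2 with paraquat is not filled in any setting.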

How the data were processed

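The deposited values are log2 signals of 34472 features on 9 Affymetrix mouse gene arrays, made by the authors with Affymetrix Expression Console 1.1 and RMA, per the submitters' processing notes. No source used here states the RMA settings. Without scanner files or detection calls, low values have no background to be set against. Precision is limited by having 3 arrays a group. Groups and replicate numbers come from the sample titles. The platform annotation gave 1 symbol to 23521 features, several to 1814 and none to 9137. The feature with the highest mean over 9 arrays was kept per gene, leaving 22180 genes. Each measured iron gene had 1 feature.

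All 9 arrays entered 1 fit in limma 3.58.1 (R 4.3.3), with 1 mean per group, lmFit and eBayes, and Benjamini-Hochberg adjustment over all genes at 0.05. Errors of changes are limma's standard errors. The genes and lists were chosen with earlier results of these data known. All 10 iron genes are named. From each other list, up to 4 genes that passed with the largest change are named, or the top 2 where none passed. For Tfrc and Slc40a1, the 3 genes with the closest profile are named. Markers named beside Slc40a1, Ttr and Cd68 among them, were chosen after their values were seen, as were Ftl1 and Slc25a28. The 18 alternatives were a block for the replicate number, the prior, a filter on dim genes, centring, quantile normalization, a fit of 2 groups, the mean of features, all features, array weights and leaving out each array. Promoter windows are RefSeq's on GRCm38.p6. The array annotation names no build in the sources used here, so no other coordinates are printed. Descriptions of diquat and paraquat replicates 2 and 3 carry the number 1, and titles were followed.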

Additional observations from a re-analysis of the deposited data

How the results depend on the processing

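Tfrc and Slc40a1 kept direction and call against medium under all 18 alternatives. For diquat minus medium, the 4 iron genes past the test became 2 in a fit of diquat and medium alone, and 2 to 4 without 1 array, and for paraquat minus medium the 3 became 2 to 3 without 1 array. Steps that left out an array tested fewer samples. Slc11a2 passed under 13 of 18 alternatives with diquat and 12 of 18 with paraquat, and Ireb2 under 7 of 18 with diquat. For paraquat minus diquat the count stayed at 0 under every alternative, where 0 to 4 of all genes passed. With dim genes left out Hamp was not tested. Over all genes, the 1558 calls with diquat became 959 with 2 groups and 887, 802 and 1000 without medium replicate 1, 2 or 3, and the 1014 calls with paraquat became 1623 with array weights, 596 and 574 without medium replicate 1 or 2, and, with paraquat replicate 2 or 3 removed, 575 and 574. Replicate numbers did not pair the arrays: correlations of same-numbered deviations lay between -0.192 and 0.198, and 2 of 9 arrays correlated best with their own number. With the replicate block 3 iron genes passed for each compound, and Ireb2 was lost with diquat (adjusted p = 0.0511), as were Lrp1 with diquat (0.0547) and Steap1 and Slc48a1 with paraquat (0.0506 and 0.0583). Of the settings for the 15 other named genes over all 3 comparisons, 732 left the outcome as it was, 62 lost a call, 13 gained one and 0 reversed it. The 732 include paraquat minus diquat, where none of these genes passed, and genes that did not pass in the reported fit. Losses could come only from the 4 rises and 4 falls with diquat and the 4 rises and 3 falls with paraquat.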
